A study of Homo sapiens with 4 samples.

Results

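Glycolysis, gluconeogenesis and the pentose phosphate pathway were followed through a list of 39 genes, from the carriers that bring glucose into the cell to the carriers that export lactate. The genes were chosen by name, by matching their symbols to the rows of the expression files, and 38 of the 39 had a row among 18398, SLC37A4 being the gene without one. The RNA came from Huh1 and Huh7, established human hepatocellular carcinoma cell lines, transfected with NCsiRNA, a negative control siRNA, or with CDCA8siRNA. The siRNA targets CDCA8, which encodes borealin, a subunit of the chromosomal passenger complex that acts in cell division. The study's methods give 15 nM siRNA and 48 h of treatment, with both siRNAs carried into the cells by the same cationic lipid. There was 1 library for each of the 4 combinations of cell line and siRNA, namely Huh1 with NCsiRNA, Huh1 with CDCA8siRNA, Huh7 with NCsiRNA and Huh7 with CDCA8siRNA.

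Glycolysis splits glucose into pyruvate in the cytosol, and cells that grow fast often pass much of that pyruvate on to lactate. Gluconeogenesis runs the other way and lets hepatocytes release glucose into the blood, through a few enzymes that bypass the irreversible steps. The pentose phosphate pathway branches off at glucose 6-phosphate and yields NADPH and ribose for nucleotides. Most steps are served by several isozymes, and hepatocytes and tumor cells use different ones.

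With 1 library per condition, no spread between replicates could be measured, and differences within a cell line have no test. Levels are taken to be RPKM, or reads per kilobase of transcript and unit of library depth, a unit the depositors did not name. RPKM allows levels of different genes to be compared. A log2 difference is the difference of log2(RPKM + 1) between CDCA8siRNA and NCsiRNA within a line, over rows that reached 1 RPKM in either library of the line. The added 1 makes the difference of a low gene smaller than its ratio of RPKM. Intervals given below are 95% intervals for the ratio of read numbers (exact, Clopper-Pearson) and cover counting error only. The libraries amounted to an estimated 12197606 to 13384836 reads, and 2568 to 3169 rows were at 0. In these bulk samples, fewer cells of a type and less RNA per cell cannot be told apart. CDCA8 stood at 24.3% of its control level in Huh1 and 14.3% in Huh7. All 11 hepatocyte markers examined, albumin among them, were at or above 1 RPKM in all 4 libraries, and the endothelial markers summed to under 0.03 RPKM in each.

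These genes made up 2.43% and 2.33% of all RPKM in Huh1 with NCsiRNA and CDCA8siRNA, and 2.63% and 2.08% in Huh7. GAPDH was the row with the highest RPKM of all in Huh7 with NCsiRNA, and 11 genes of the list stood above 100 RPKM in all 4 libraries. At the other end, 5 genes stayed under 1 RPKM in every library, namely PCK1, FBP1, FBP2, G6PC and PFKFB1. The remaining 33 passed the filter in at least 1 line, 27 of them in both and 6 in 1 line only.

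**Figure D1:**
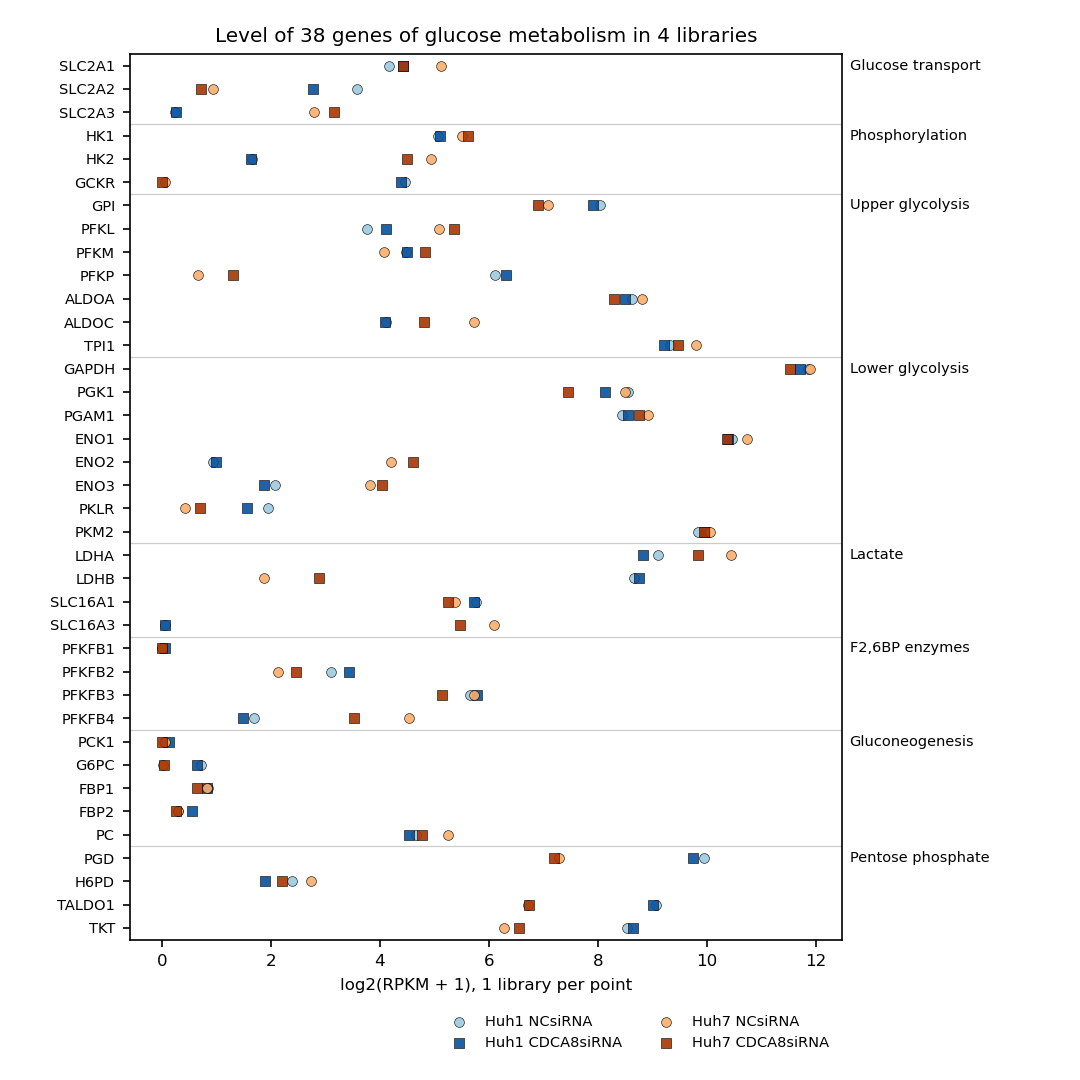
Level of each of the 38 genes as log2(RPKM + 1) on the horizontal axis, grouped by role from top to bottom. Each point is 1 library, circles for NCsiRNA and squares for CDCA8siRNA, blue for Huh1 and orange for Huh7. Circles and squares of a line mostly lie close together, while PFKP, LDHB, SLC16A3 and GCKR lie far apart between the lines, as with LDHB at 403 RPKM in Huh1 and 2.68 RPKM in Huh7 with NCsiRNA.

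The question of the study was what CDCA8 silencing does to gene expression in both lines. The glucose genes leaned downward, mildly in Huh1 and more in Huh7. In Huh1, 19 of 30 tested genes were lower with CDCA8siRNA and 11 higher, with a median log2 difference of -0.07 beside 0.02 over all 10940 rows tested. In Huh7 the split was again 19 lower and 11 higher, with a median of -0.18 beside 0.03 over all 11565 rows. Lower genes made up 63.3% of the list in each line, beside 44.9% of all rows in Huh1 and 45.5% in Huh7. Among rows at or above 100 RPKM, however, 60.9% were lower in Huh1 and 58.2% in Huh7, with a median of -0.04 in each.

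At 2-fold, 0 of the 30 genes differed in Huh1, where 0.494% of all rows did. In Huh7 3 of 30 differed by 2-fold beside 1.57% of all rows. LDHB was higher there, while PGK1 and PFKFB4 were lower. Several lay close to this limit, since LDHB went to 0.97 after quantile normalization and PFKFB4 to -0.99 with upper quartile scaling, and PFKP reached 1.20 with a pseudocount of 0.1 RPKM. At 1.5-fold, on the same scale, SLC2A2 alone was lower in Huh1, where 1.27% of all rows were. In Huh7 6 genes were lower by 1.5-fold beside 3.42% of all rows, namely PGK1, PFKFB4, ALDOC, SLC2A1, SLC16A3 and LDHA, and 3 were higher beside 5.30% of all rows, namely PFKM, PFKP and LDHB. Just outside and just inside these limits were PFKFB3, at -0.58, and LDHA, at -0.61 on the log2 scale.

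The siRNA effect shared by both lines was tested with limma over 10357 rows, with a term for the cell line and Benjamini-Hochberg adjustment. The fit has 1 residual degree of freedom, which reflects whether both lines moved alike. Most of the variance estimate came instead from other rows of like level (8.29 prior degrees of freedom). The p-values thus follow the size of the shared effect as well, and do not measure the spread between cultures. Of the 27 glucose genes tested, 4 fell and 0 rose, where 4.21% of all rows fell and 6.03% rose, 10.2% in all. They were PGK1, LDHA, GAPDH and H6PD. At an unadjusted p under 0.05 there were 16, of which 10 were lower and 6 higher. The share of all rows at that unadjusted limit is not reported here. After quantile normalization of the libraries 11 of 28 were called, 3 higher and 8 lower, beside 1539 of all 10396 rows tested. Without a filter on low values 0 were called, among the glucose genes and among all rows.

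**Figure D2:**
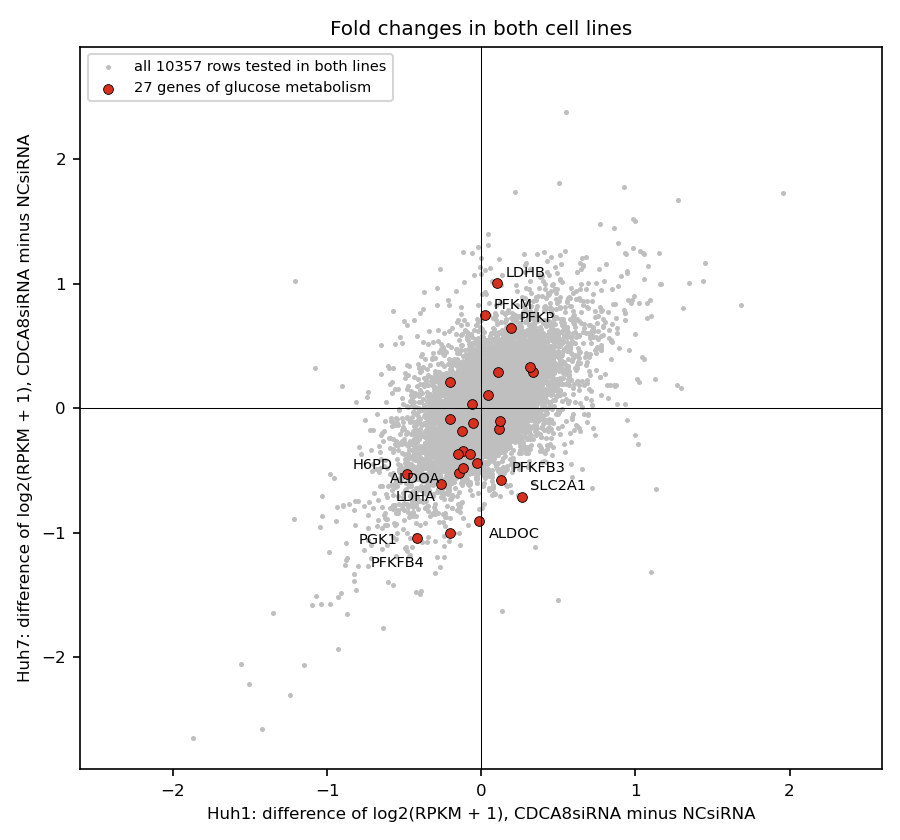
Log2 difference between CDCA8siRNA and NCsiRNA in Huh1 (horizontal) against Huh7 (vertical), both of log2(RPKM + 1), with 1 library per condition. Grey points are all 10357 rows tested in both lines and red points are the 27 glucose genes among them, with the larger differences labelled. Of the 27 red points 14 lie at the lower left, lower in both lines, among them PGK1 at -0.42 and -1.05.

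Of the 27 glucose genes tested in both lines 14 were lower in both, beside 30.5% of all rows. Another 7 glucose genes were higher in both lines, 4 were higher in Huh1 and lower in Huh7, and 2 were the reverse.

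The promoters of the genes that limma called and of those that differed by 2-fold in Huh7 are shown because these genes carry the differences described below. Each is the RefSeq window of 300 bases from 250 before to 50 after the start of the gene, on GRCh38.p14, read 5′ to 3′ on the strand of the gene. That start is the one in the RefSeq table, and it need not be the start that these cells use. Against the GENCODE 29 transcript with the identifier of the row, it lay within 100 bases for PGK1, LDHA, PFKFB4 and LDHB, but 1337 bases downstream for GAPDH and 5072 bases downstream for H6PD. Capitals mark ACGTG and GCGTG, the core of the element that hypoxia-inducible factors bind, on either strand, so that a match on the other strand reads CACGT or CACGC. The window of PGK1 is chrX:78103998-78104297 on the plus strand, that of LDHA is chr11:18394313-18394612 (plus), that of GAPDH is chr12:6535014-6535313 (plus) and that of H6PD is chr1:9239597-9239896 (plus). The window of PFKFB4 is chr3:48556754-48557053 (minus) and that of LDHB is chr12:21657793-21658092 (minus).
PGK1: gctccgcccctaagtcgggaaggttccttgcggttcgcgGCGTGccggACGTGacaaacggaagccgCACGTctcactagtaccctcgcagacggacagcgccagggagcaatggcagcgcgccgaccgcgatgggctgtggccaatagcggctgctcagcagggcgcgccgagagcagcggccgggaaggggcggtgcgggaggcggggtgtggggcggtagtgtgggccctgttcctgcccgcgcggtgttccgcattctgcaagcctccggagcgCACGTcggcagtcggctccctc
LDHA: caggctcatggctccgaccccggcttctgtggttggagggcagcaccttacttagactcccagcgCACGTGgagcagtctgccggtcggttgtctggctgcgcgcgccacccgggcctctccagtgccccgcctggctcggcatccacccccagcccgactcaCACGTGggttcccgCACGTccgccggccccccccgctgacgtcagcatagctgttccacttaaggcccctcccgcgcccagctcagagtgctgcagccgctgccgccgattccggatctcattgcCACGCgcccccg
GAPDH: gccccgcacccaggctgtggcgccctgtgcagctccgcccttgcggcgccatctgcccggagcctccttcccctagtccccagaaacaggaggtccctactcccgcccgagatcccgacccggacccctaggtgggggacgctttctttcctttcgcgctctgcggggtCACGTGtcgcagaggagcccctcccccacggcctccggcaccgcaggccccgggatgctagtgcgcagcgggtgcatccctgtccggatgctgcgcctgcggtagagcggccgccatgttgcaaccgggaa
H6PD: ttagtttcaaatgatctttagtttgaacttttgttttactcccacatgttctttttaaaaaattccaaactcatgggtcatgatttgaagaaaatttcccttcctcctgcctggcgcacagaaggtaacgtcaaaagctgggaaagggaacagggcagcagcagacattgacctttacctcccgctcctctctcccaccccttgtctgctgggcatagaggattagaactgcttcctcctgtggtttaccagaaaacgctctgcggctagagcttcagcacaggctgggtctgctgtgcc
PFKFB4: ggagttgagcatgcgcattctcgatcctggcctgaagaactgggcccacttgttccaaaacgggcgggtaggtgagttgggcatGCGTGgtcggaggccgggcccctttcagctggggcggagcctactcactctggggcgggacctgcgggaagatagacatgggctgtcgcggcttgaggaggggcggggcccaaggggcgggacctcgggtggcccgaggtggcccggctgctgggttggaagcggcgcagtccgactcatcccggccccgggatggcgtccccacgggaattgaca
LDHB: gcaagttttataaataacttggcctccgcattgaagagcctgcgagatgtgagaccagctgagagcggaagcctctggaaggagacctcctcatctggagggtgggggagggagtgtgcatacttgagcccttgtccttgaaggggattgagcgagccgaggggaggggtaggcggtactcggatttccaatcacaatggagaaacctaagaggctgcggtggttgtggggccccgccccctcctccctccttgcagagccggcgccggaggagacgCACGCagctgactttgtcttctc

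Both PGK1 and LDHA held 4 separate stretches in capitals, GAPDH, PFKFB4 and LDHB held 1 each, and the H6PD window, which lies inside the gene as GENCODE 29 draws it, held 0. In LDHA 2 of the stretches, and in GAPDH the only one, were the full palindrome CACGTG, the E-box, which contains ACGTG on both strands. A RefSeq window was matched for 34 of the 38 genes, those without one being PCK1, PFKFB2, SLC2A3 and SLC16A1. For many of them the RefSeq start lay over 100 bases from the start of the row's GENCODE 29 transcript. Examples are PFKFB3 (-58010, minus meaning upstream) and HK1 (-48844). The motif shares thus describe RefSeq windows, not always those of the transcripts measured. ACGTG or GCGTG lay in 21 of the 34 windows (61.8%), compared with 48.4% of all 35116 RefSeq windows of the same length. Taken singly, ACGTG was in 35.3% of the 34 and 21.4% of all, GCGTG in 41.2% and 36.5%, CACGTG in 11.8% and 7.26%, and TATAAA, the TATA box, in 8.82% and 11.5%, each on both strands. Of the 6 genes lower by 1.5-fold in Huh7, 5 held ACGTG or GCGTG, as did 3 of the 4 called by limma. Among other tested genes, 13 of 21 windows held ACGTG or GCGTG. Among the 6, the RefSeq start was off by 369 bases for ALDOC, 308 for SLC2A1 and -597 for SLC16A3. These matches describe letters in a window and no binding was measured.

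**Figure D3:**
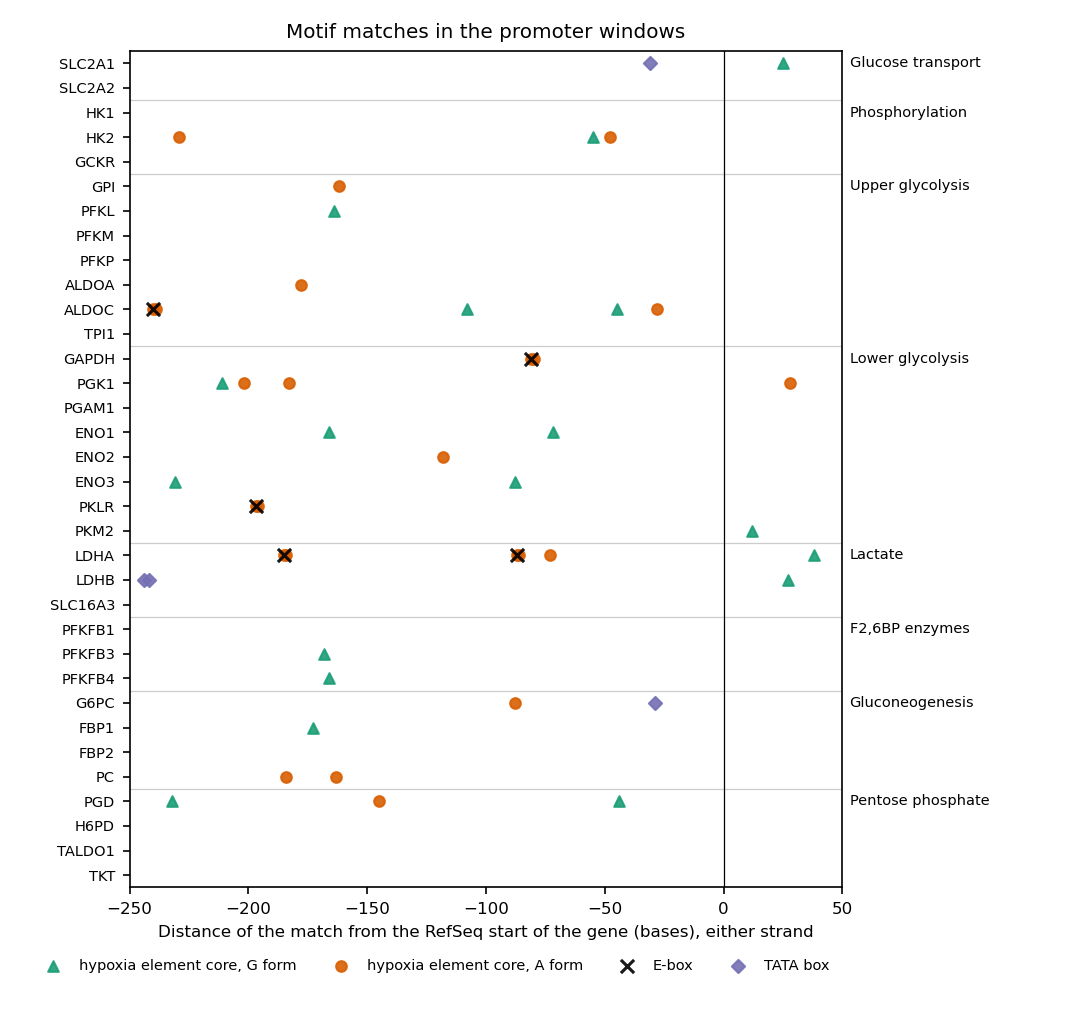
Position of each motif match in the 34 promoter windows, as distance in bases from the RefSeq start of the gene (vertical line), on either strand. Orange circles are ACGTG, green triangles GCGTG, crosses CACGTG and violet diamonds TATAAA. PGK1, LDHA and ALDOC each show 4 separate places with ACGTG or GCGTG, and the H6PD window shows none.

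Glucose enters through the GLUT carriers, of which SLC2A1 (GLUT1) is the widespread form, SLC2A2 (GLUT2) the hepatocyte form and SLC2A3 (GLUT3) a high-affinity form best known from neurons. SLC2A1 stood at 16.9 and 20.5 RPKM in Huh1 with NCsiRNA and CDCA8siRNA, and at 33.9 and 20.3 RPKM in Huh7. The Huh7 control was the high library, and with CDCA8siRNA both lines were at nearly the same level. The log2 difference was 0.26 in Huh1 and -0.71 in Huh7, on opposite sides of 0 and each beyond counting error, and limma gave a shared coefficient of -0.22 (adjusted p = 0.495).

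SLC2A2 was at 11.0 and 5.82 RPKM in Huh1 and at 0.914 and 0.640 RPKM in Huh7. In Huh1 it was at 53.0% of control (interval of the ratio 0.452 to 0.619), the only gene of the list past 1.5-fold in that line on the log2(RPKM + 1) scale, though by plain ratio H6PD was at 64.8%. In Huh7 it was below the filter in both libraries. SLC2A3 showed the reverse pattern, with 0.174 and 0.190 RPKM in Huh1 and 5.94 and 7.97 RPKM in Huh7, where its ratio of 1.34 had an interval of 1.15 to 1.57. The summed RPKM of the 3 carriers was 94.5% of control in Huh1 and 71.0% in Huh7.

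Glucose is trapped in the cell by hexokinase. HK1, the housekeeping form, had 32.4 and 33.5 RPKM in Huh1 and 44.5 and 47.99 RPKM in Huh7, and differed little between the siRNAs. HK2, the form induced in many tumors, had 2.16 and 2.10 RPKM in Huh1 and 29.6 and 21.5 RPKM in Huh7. It was high only in the Huh7 libraries, and within Huh7 it was lower with CDCA8siRNA by a log2 difference of -0.44 (ratio 0.726, interval 0.679 to 0.776). The limma coefficient was -0.23 (adjusted p = 0.295).

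GCKR, a regulatory protein of glucose phosphorylation in hepatocytes, was at 21.0 and 19.8 RPKM in Huh1. In Huh7 it came to 1 read with NCsiRNA and 0 with CDCA8siRNA. Both Huh1 libraries were thus high and both Huh7 libraries at or near 0. HKDC1, a further hexokinase outside the list, was at 62.5 and 80.4 RPKM in Huh1 and at 1.00 and 1.17 RPKM in Huh7.

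In the upper part of glycolysis, glucose 6-phosphate is isomerized, phosphorylated again and cleaved into triose phosphates. GPI, the isomerase, had 261 and 240 RPKM in Huh1 and 135 and 119 RPKM in Huh7, slightly lower with CDCA8siRNA in each line (log2 difference -0.12 and -0.18). Its transcript had no matched length, so no read number could be given for it.

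Phosphofructokinase 1, the main control point of the pathway, is encoded by PFKL (liver form), PFKM (muscle form) and PFKP (platelet form). All 3 were higher with CDCA8siRNA in both lines, although 0 of the 3 passed the adjusted test and PFKM in Huh1 turned to -0.003 after quantile normalization. PFKL had 12.6 and 16.2 RPKM in Huh1 and 32.8 and 40.2 RPKM in Huh7 (log2 difference 0.33 and 0.29, adjusted p = 0.0753 with limma). PFKM had 21.2 and 21.5 RPKM in Huh1 and 15.8 and 27.3 RPKM in Huh7, so that only the Huh7 pair was apart, by 0.75 on the log2 scale (ratio 1.72, interval 1.56 to 1.90). PFKP had 68.3 and 78.2 RPKM in Huh1 and 0.586 and 1.47 RPKM in Huh7. Its Huh7 values rested on 19.0 and 47.9 reads, and the interval of the ratio there was 1.45 to 4.53.

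The aldolases cleave the 6-carbon sugar, and the 2 on the list were lower with CDCA8siRNA. ALDOA, the widespread form, had 397 and 359 RPKM in Huh1 and 450 and 314 RPKM in Huh7, lower with CDCA8siRNA in both lines (log2 difference -0.15 and -0.52, limma adjusted p = 0.0533). ALDOC, the brain form, had 16.2 and 16.0 RPKM in Huh1 and 51.9 and 27.1 RPKM in Huh7. The Huh1 pair did not differ beyond counting error, while in Huh7 the level with CDCA8siRNA was 52.3% of control (log2 difference -0.91). The limma coefficient of ALDOC was -0.46 (adjusted p = 0.129). TPI1, which interconverts the triose phosphates, had 642 and 591 RPKM in Huh1 and 894 and 705 RPKM in Huh7 (log2 difference -0.12 and -0.34, adjusted p = 0.0838). The 7 genes of the upper part summed to 93.1% of control in Huh1 and 78.1% in Huh7.

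The lower part of glycolysis yields the ATP, and 2 of the 4 genes that fell belong to it. PGK1, the phosphoglycerate kinase that makes the first ATP, had 375 RPKM with NCsiRNA and 280 RPKM with CDCA8siRNA in Huh1. In Huh7 it had 362 and 175 RPKM. The control libraries of both lines lay close together and both CDCA8siRNA libraries lay below them, at 74.8% of control in Huh1 and 48.3% in Huh7. PGK1 fell by 0.73 on the log2 scale over both lines (limma coefficient -0.73, SE 0.13, adjusted p = 0.00953).

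GAPDH, the dehydrogenase just before it and a common reference gene, had 3733 and 3367 RPKM in Huh1 and 3805 and 2944 RPKM in Huh7. Both CDCA8siRNA libraries were below both controls, at 90.2% and 77.4% of their own control. GAPDH fell by 0.26 on the log2 scale over both lines (SE 0.07, adjusted p = 0.0383 with limma). The call was lost with upper quartile scaling (adjusted p = 0.0530) and without the mean-variance trend (adjusted p = 0.190), and its adjusted p ran from 0.000681 to 1.00 over the alternatives. As a gene at the very top of the table, GAPDH is tied to its rank by quantile normalization, which gave log2 differences of 0 in Huh1 and -1.47 in Huh7.

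PGAM1, the phosphoglycerate mutase, had 347 and 377 RPKM in Huh1 and 485 and 431 RPKM in Huh7, higher with CDCA8siRNA in the first line and lower in the second. ENO1, the main enolase, had 1403 and 1336 RPKM in Huh1 and 1710 and 1323 RPKM in Huh7. The high library was the Huh7 control, and the other libraries lay within a narrow range (log2 difference -0.07 and -0.37, adjusted p = 0.108). ENO2, the neuronal enolase, was at 0.910 and 0.993 RPKM in Huh1 and at 17.4 and 23.5 RPKM in Huh7. ENO3, the muscle enolase, was at 3.20 and 2.65 RPKM in Huh1 and at 13.2 and 15.4 RPKM in Huh7, and its siRNA differences did not exceed counting error in either line.

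Pyruvate kinase closes the pathway. The row named PKM2, the older symbol of the gene PKM, had 916 and 995 RPKM in Huh1 and 1060 and 988 RPKM in Huh7. It was higher with CDCA8siRNA in Huh1 by 0.12 and lower in Huh7 by a log2 difference of -0.10, and the CDCA8siRNA libraries of both lines were almost equal. One row per gene does not separate the M1 and M2 splice forms. PKLR, the form of liver and red cells, had 2.84 and 1.94 RPKM in Huh1 (ratio 0.685, interval 0.505 to 0.917) and 0.341 and 0.620 RPKM in Huh7. The 8 genes of the lower part summed to 93.8% of control in Huh1 and 79.2% in Huh7.

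Pyruvate becomes lactate through lactate dehydrogenase, built from LDHA and LDHB subunits. LDHA had 547 and 456 RPKM in Huh1 and 1396 and 913 RPKM in Huh7. Each CDCA8siRNA library was below its own control, at 83.5% and 65.4%, and both Huh7 libraries were above both Huh1 libraries. LDHA fell by 0.44 on the log2 scale over both lines (SE 0.09, limma adjusted p = 0.0168), a call lost without the mean-variance trend (adjusted p = 0.0735, range over the alternatives 0.000167 to 1.00). LDHB was instead at 403 and 432 RPKM in Huh1 and at 2.68 and 6.38 RPKM in Huh7. The Huh7 values rested on 42.5 and 102 reads, and their ratio of 2.38 (interval 1.64 to 3.45) made LDHB the only gene of the list higher by 2-fold on the log2(RPKM + 1) scale (1.00). By plain ratio PFKP in Huh7, at 2.51, was higher by 2-fold as well. Over both lines the limma coefficient of LDHB was 0.55 (adjusted p = 0.0764).

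Lactate leaves through monocarboxylate carriers. SLC16A1 (MCT1), which works in both directions, had 53.6 and 51.7 RPKM in Huh1 and 40.5 and 37.2 RPKM in Huh7, with a small difference in each line. SLC16A3 (MCT4), the exporter typical of glycolytic cells, came to about 1 read in each Huh1 library. In Huh7 it had 67.6 and 43.2 RPKM, at 63.9% of control with CDCA8siRNA (interval of the ratio 0.591 to 0.690). The 4 genes of lactate handling summed to 93.8% of control in Huh1 and 66.3% in Huh7.

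**Figure D4:**
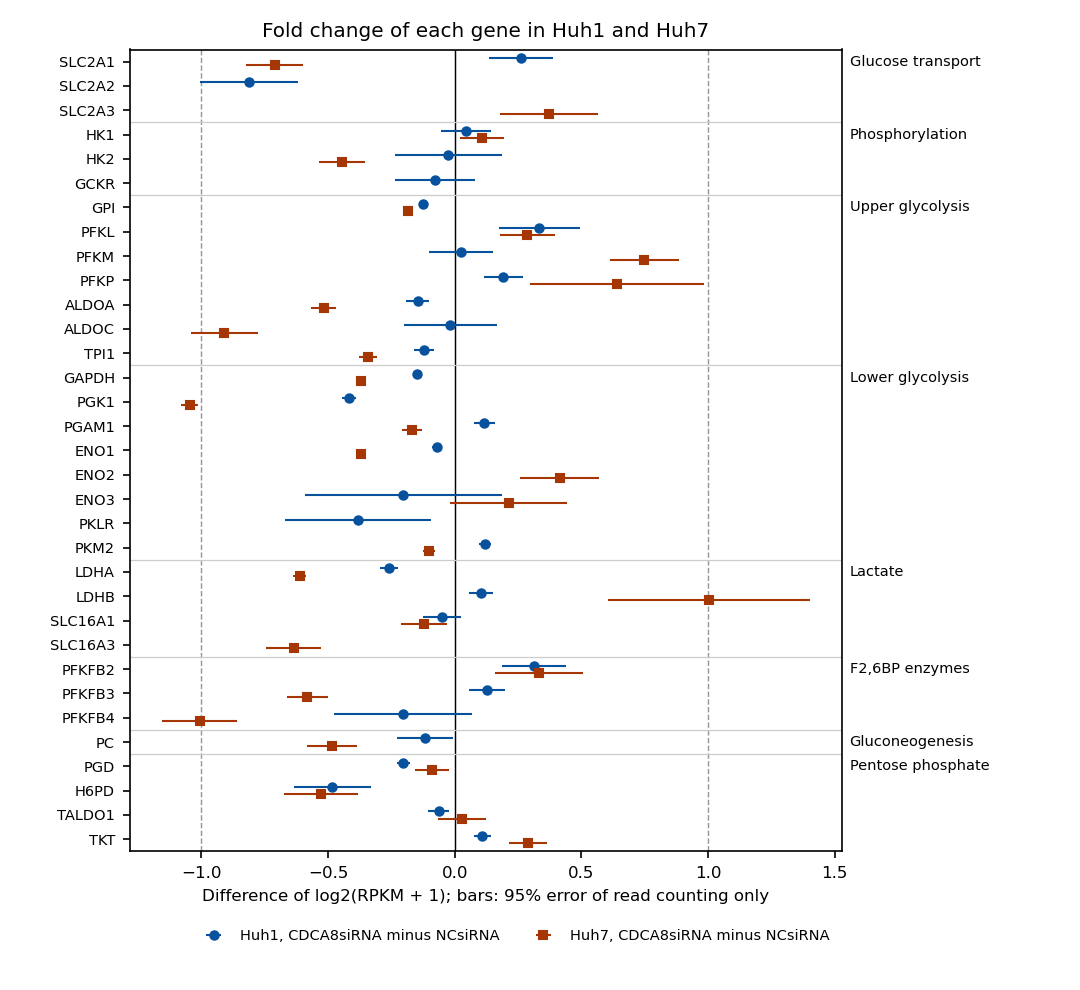
Log2 difference between CDCA8siRNA and NCsiRNA for the 33 genes tested in at least 1 line, Huh1 as blue circles and Huh7 as brown squares, 1 library per condition. Horizontal bars are the 95% error of read counting only (GPI has none, for want of a length) and dashed lines mark 2-fold. In Huh7 PGK1 (-1.05) and PFKFB4 (-1.01) lie beyond the left dashed line and LDHB reaches the right one, while in Huh1 the gene farthest from 0 is SLC2A2 (-0.81).

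Fructose 2,6-bisphosphate is the strongest activator of phosphofructokinase 1, and the 4 PFKFB enzymes make and remove it. PFKFB3, which mostly makes it, had 49.3 and 53.9 RPKM in Huh1 and 51.7 and 34.2 RPKM in Huh7. The Huh7 library with CDCA8siRNA was low and the others lay between 49.3 and 53.9 RPKM (log2 difference 0.13 and -0.58, limma adjusted p = 0.369). PFKFB4, the testis form also found in tumors, had 2.226 and 1.803 RPKM in Huh1 and 22.2 and 10.5 RPKM in Huh7, where it was at 47.5% of control (interval of the ratio 0.424 to 0.531). Its limma coefficient was -0.61 (adjusted p = 0.0598).

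PFKFB2, the heart form, was higher with CDCA8siRNA in both lines, with 7.63 and 9.73 RPKM in Huh1 and 3.37 and 4.50 RPKM in Huh7 (log2 difference 0.31 and 0.33, adjusted p = 0.114). PFKFB1, the liver form that insulin and glucagon switch, was at 0 in 3 libraries and at 0.0437 RPKM in Huh1 with CDCA8siRNA. The summed RPKM of the PFKFB genes was 111% of control in Huh1 and 63.8% in Huh7.

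The enzymes that set gluconeogenesis apart were nearly silent, apart from the first. PC, the mitochondrial pyruvate carboxylase, had 24.3 and 22.3 RPKM in Huh1 and 37.2 and 26.3 RPKM in Huh7 (log2 difference -0.12 and -0.48, adjusted p = 0.125 with limma). FBP1, the liver fructose bisphosphatase, had 0.799 and 0.763 RPKM in Huh1 and 0.773 and 0.564 RPKM in Huh7. G6PC, the phosphatase that releases free glucose, had 0.635 and 0.558 RPKM in Huh1 and 0.0181 and 0.0233 RPKM in Huh7. PCK1, the cytosolic carboxykinase, rested on at most 5.01 reads in any library and FBP2, the muscle bisphosphatase, on at most 8.01. A difference between the siRNAs was not detectable for these 4 genes at this depth. The mitochondrial carboxykinase PCK2, outside the list, was measured at 7.32 and 7.69 RPKM in Huh1 and 10.1 and 12.1 RPKM in Huh7.

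The pentose phosphate genes differed far more between the lines than between the siRNAs. H6PD, the hexose 6-phosphate dehydrogenase of the endoplasmic reticulum, was the exception among the 4. It had 4.20 and 2.72 RPKM in Huh1 and 5.64 and 3.61 RPKM in Huh7, so the loss was alike in both lines, to 64.8% and 64.0% of control. H6PD fell by 0.50 on the log2 scale (SE 0.12, adjusted p = 0.0358 with limma).

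PGD, the 6-phosphogluconate dehydrogenase of the oxidative branch, had 989 and 859 RPKM in Huh1 and 155 and 145 RPKM in Huh7, slightly lower with CDCA8siRNA in each line (log2 difference -0.20 and -0.09). TKT, the transketolase of the branch without oxidation, had 369 and 398 RPKM in Huh1 and 76.2 and 93.3 RPKM in Huh7, higher with CDCA8siRNA in both lines (log2 difference 0.11 and 0.29, adjusted p = 0.158). TALDO1, the transaldolase, had 535 and 512 RPKM in Huh1 and 104 and 106 RPKM in Huh7, and its small difference in Huh1 turned from -0.06 to 0.03 after quantile normalization. Summed RPKM of the 4 was 93.4% of control in Huh1 and 102% in Huh7, where the level with NCsiRNA was 341 RPKM beside 1897 RPKM in Huh1.

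Between the lines, 14 of the 33 glucose genes tested were 2-fold apart in the same direction under both siRNAs, 7 higher in Huh7 and 7 higher in Huh1, beside 22.9% of all 12148 rows. With limma, and siRNA as a covariate, 26 of 33 differed (14 higher in Huh7 and 12 higher in Huh1), beside 71.2% of all rows, so the share called was near that of all rows. The lines were not sequenced in repeated cultures under 1 siRNA, so a difference between lines and one between cultures cannot be told apart.

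Higher in Huh1 were LDHB (limma coefficient -6.33 for Huh7 minus Huh1, on the log2 scale), PFKP (-5.23), GCKR (-4.39), PGD (-2.61), SLC2A2 (-2.35), TALDO1 (-2.30) and TKT (-2.17). In RPKM with NCsiRNA, LDHB was 150 times as high in Huh1 (interval 110 to 206), PFKP 117 times and PGD 6.39 times. Higher in Huh7 were SLC16A3 (5.73), ENO2 (3.44), HK2 (3.07), SLC2A3 (2.74), PFKFB4 (2.44), ENO3 (1.97) and PFKL (1.29). With NCsiRNA HK2 was 13.7 times as high in Huh7 (interval 11.7 to 16.1). LDHA and ALDOC, each with a coefficient of 1.18, were also higher in Huh7 by limma, while GAPDH, ENO1, PKM2, ALDOA, PFKM, SLC2A1 and PFKFB3 were not called. Without a filter on low values 18 of 38 differed in place of 26 of 33, and LDHA (adjusted p = 0.0514), PFKFB4 (0.0526), PKLR (0.0926) and ALDOC (0.134) were among those no longer called.

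The lines thus drew on different isozymes for several steps, as shares of RPKM summed over the genes analysed for a step. HKDC1 held 64.4% of the sum of HK1, HK2, HK3 and HKDC1 in Huh1 with NCsiRNA and 69.3% with CDCA8siRNA, but 1.33% and 1.66% in Huh7, where HK1 and HK2 made up the rest. PFKP held 66.9% and 67.5% of phosphofructokinase 1 in Huh1, whereas PFKL held 66.7% and 58.3% in Huh7. LDHB held 42.4% and 48.7% of lactate dehydrogenase in Huh1, and 0.191% and 0.693% in Huh7. Of the sum of SLC16A1 and SLC16A3, without the other carriers of that family, SLC16A3 held 62.5% and 53.7% in Huh7 and under 0.1% in Huh1.

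Other steps had 1 main gene in both lines. PKM2 held 99.69% to 99.97% of pyruvate kinase and ENO1 97.1% to 99.7% of enolase.

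**Figure D5:**
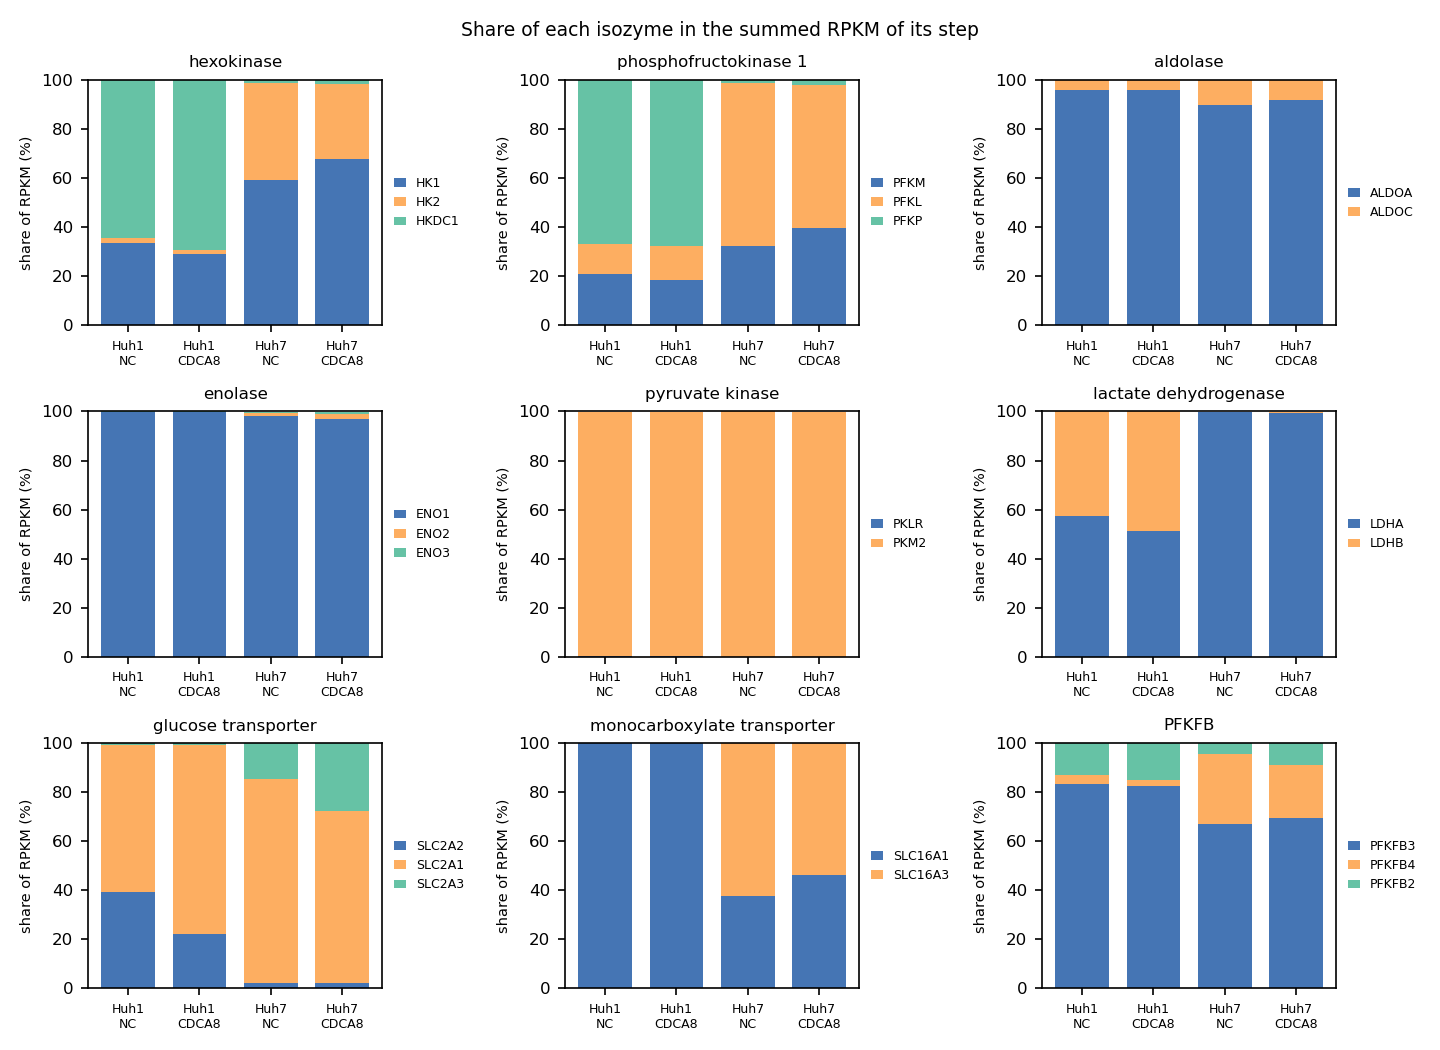
Share of each isozyme (%) in the summed RPKM of its step, 1 bar per library and 1 panel per step, bars starting at 0. Isozymes under 0.5% in every library of panels with over 3 genes (HK3 and PFKFB1) are not drawn, and shares are over the genes of each panel, without other carriers or isozymes. HKDC1, PFKP and LDHB take large shares only in the Huh1 bars (64.4%, 66.9% and 42.4% with NCsiRNA), and SLC16A3 only in the Huh7 bars.

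Genes next to these pathways were counted in lists taken from textbook pathways, to be read beside the 4.21% of all rows that fell and the 6.03% that rose. Of 11 tested genes of mitochondrial pyruvate entry, of the pyruvate dehydrogenase complex and of its control, 3 fell and 1 rose by limma. DLAT, the acetyltransferase of the pyruvate dehydrogenase complex, had 29.5 and 19.5 RPKM in Huh1 and 33.5 and 15.8 RPKM in Huh7 (coefficient -0.80, adjusted p = 0.00587). PDK2, a kinase that turns the complex off, fell (coefficient -0.53, adjusted p = 0.0334), and PDP1, a phosphatase that turns it on, rose (0.57, adjusted p = 0.0450). Among genes of fructose use, KHK, the ketohexokinase, fell (-0.46, adjusted p = 0.0362), as did SORD, the sorbitol dehydrogenase (-0.42, adjusted p = 0.0240). Of 7 other pentose phosphate genes, RBKS, the ribokinase, fell (-0.53, adjusted p = 0.0383) and 0 rose. Of 12 glycogen genes and of 9 further isozymes and steps, 0 passed the adjusted test of limma in either direction, where 3 and 0 had an unadjusted p under 0.05.

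Among 15 tested regulators, HNF4A, a master factor of hepatocyte genes, fell (coefficient -0.52, adjusted p = 0.00878). It had 86.1 and 59.1 RPKM in Huh1, and 55.4 and 38.8 RPKM in Huh7. PRKAA2, a catalytic subunit of AMP-activated kinase, rose (0.48, adjusted p = 0.0466). PRKAA1, the other catalytic subunit, was not called (-0.07, limma adjusted p = 0.707). It had 31.1 and 29.1 RPKM in Huh1 and 32.1 and 31.3 RPKM in Huh7, above PRKAA2 in each library. HIF1A, the hypoxia-inducible factor subunit, was at 31.3 and 29.7 RPKM in Huh1 and at 147 and 124 RPKM in Huh7. The 15 tested hypoxia response genes outside glycolysis had a median log2 difference of 0.02 in Huh1, with 6 lower, and of -0.17 in Huh7, with 12 lower, beside 44.9% and 45.5% of all rows lower. By limma 3 of them fell and 0 rose, namely NDRG1 (-0.59), DDIT4 (-0.48) and BNIP3 (-0.47).

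Of the 11 hepatocyte markers 8 were lower with CDCA8siRNA in both lines. APOA2 was higher in both, TTR was lower in Huh1 and higher in Huh7, and AFP the reverse. Their summed RPKM was 6446 with NCsiRNA and 5466 with CDCA8siRNA in Huh1, and 3521 and 2518 in Huh7, with AHSG, ALB and APOB among the 8. Of the 7 fibroblast markers, 1 was at or above 1 RPKM in the Huh1 libraries and 4 to 5 in the Huh7 libraries. They summed to 12.1 and 25.9 RPKM in Huh1 and to 284 and 378 RPKM in Huh7. The 6 blood markers summed to 3.84 to 24.2 RPKM, nearly all of it CD68. The part of these differences in the levels of the glucose genes was not tested.

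Several of these genes have near-identical processed copies in the genome. The annotation names 62 pseudogenes of GAPDH, 13 of PGAM1, 6 of LDHA, 5 of PKM, 4 each of TPI1 and ENO1 and 1 of PGK1. How reads that match a gene and its copies were counted is not given in the sources used here, so the levels of these genes are less certain than those of H6PD or ALDOC, for which 0 are named.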

How the data were processed

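RNA of 4 libraries was sequenced, 1 for each cell line (Huh1, Huh7) and siRNA (NCsiRNA, CDCA8siRNA), and groups were taken from the labels. The labels give Illumina TruSeq libraries from total RNA. The siRNA dose and time came from the study's methods. The submitters' processing notes name CASAVA 1.8.2, TopHat2 2.0.9 and the build hg19, without saying what each did. The authors deposited 1 value per RefSeq transcript without naming its unit, and the values were taken to be RPKM. Of low values times transcript length, 35.1% to 38.0% per library fell within 0.05 of a whole multiple of 1 constant. The others did not, so the unit and the read numbers are estimates. That constant gave 12197606 to 13384836 reads per library. Read numbers used GENCODE 29 lengths, matched for 17768 of 18398 rows and 37 of the 38 genes, and served only for counting error. Counting intervals hold no variation between cultures.

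Log2 differences used a pseudocount of 1 RPKM and a minimum of 1 RPKM in either library of a line. Genes were called at 2-fold, as the study does, and at 1.5-fold as an alternative. The study's own test could not be repeated, as each condition has 1 library. Instead, all rows tested were fitted with limma 3.58.1, run under R 4.3.3 (lmFit, eBayes with trend), with terms for siRNA and cell line, 1 residual degree of freedom and Benjamini-Hochberg adjustment at 0.05. For siRNA a row had to pass the minimum in both lines, and for cell line in any library. Prior degrees of freedom were 8.29 for siRNA and 7.48 for cell line, so most of the variance estimate came from other rows. Labels give no separate cultures, so p-values do not measure the spread between cultures. Other steps ran in Python 3.11.15 (numpy 2.4.6, scipy 1.17.1, pandas 2.3.3). Of these steps, only the limma fit for the siRNA effect was checked on simulated data. Promoter windows are those of RefSeq on GRCh38.p14, matched by symbol.

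All listed genes with a row were named. Of related lists, at most 3 called genes with the largest coefficients and isozymes of listed steps were named, and a few of these are not reported here. The genes, lists and motifs were chosen with earlier results of these data known. Alternatives were a pseudocount of 0.1 RPKM, no filter, a minimum of 5 RPKM, quantile normalization, upper quartile scaling, a 1.5-fold threshold, limma without the trend and limma without the other factor.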

Additional observations from a re-analysis of the deposited data

Results flagged for a closer look

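Of the 27 genes tested in both lines, 4 differed between NCsiRNA and CDCA8siRNA in opposite directions in the 2 lines, each time beyond counting error. Counting error is small for genes with many reads. Of the tested genes with a read number, only 8 in Huh1 and 2 in Huh7 stayed within it. The share of all rows that differed in this way is not reported here. SLC2A1, the glucose carrier GLUT1, had a log2 difference of 0.26 in Huh1 and -0.71 in Huh7. PFKFB3, which makes fructose 2,6-bisphosphate, had 0.13 in Huh1 and -0.58 in Huh7. PGAM1, the phosphoglycerate mutase, had 0.12 in Huh1 and -0.17 in Huh7. PKM2, the pyruvate kinase gene, had 0.12 in Huh1 and -0.10 in Huh7, and its Huh7 value became 0 after quantile normalization. In all 4 the level with CDCA8siRNA was above the control in Huh1 and below it in Huh7. With 1 library per condition the difference between the lines was not tested.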

How the results depend on the processing

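A threshold of 1.5-fold in place of 2-fold raised the number of glucose genes called from 0 to 1 for Huh1 and 3 to 9 for Huh7, and of all rows from 54 to 410 (Huh1), 182 to 1009 (Huh7) and 2784 to 4980 (between the lines), as a lower threshold must. A pseudocount of 0.1 RPKM raised all rows to 164 in Huh1 and 422 in Huh7. For the siRNA effect, limma called 4 glucose genes, and 11 after quantile normalization, 2 without the trend and 0 both without a filter on low values and without the cell line as a term. Of all rows it called 1061, and 1539 after quantile normalization, 710 without the trend and 0 in these last 2 settings. Between the lines it called 5433 rows without a filter in place of 8654. The cause was not tested. Adjusted p-values over the alternatives ran from 3.41e-06 to 1.00 for PGK1 and from 0.00432 to 1.00 for H6PD. Quantile normalization moved the rows higher and lower by 2-fold in Huh1 from 35 and 19 to 22 and 20, and those apart between the lines from 1749 and 1035 to 1393 and 1254. Of the log2 differences of single glucose genes 276 moved by less than counting error and 17 by more, 15 of these under quantile normalization. The 276 include 60 without a filter and 53 at a minimum of 5 RPKM, settings that cannot change a log2 difference. Under quantile normalization 45 moved by less than counting error. Direction kept its sign in Huh7 under each scaling, PKM2 going to 0, and under quantile normalization turned for PFKM and TALDO1 in Huh1, with GAPDH and ENO1 at 0. No paired analysis was possible because the labels carry no replicate numbers, but the cell line term of limma sets the siRNAs against each other within a line. Leaving out a library left no residual degrees of freedom and was not run. Depth limits PFKP and LDHB in Huh7 and the gluconeogenic genes.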
